A study of Homo sapiens with 7 samples.

Results

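Transcripts of 6 enzymes that make asparagine, proline, alanine and aspartate were followed in H4 cells under blue light: ASNS, ALDH18A1, PYCR1, GPT2, GOT1 and GOT2. They were taken by symbol from the deposited gene tables, where each has 1 row, out of 18817 genes named in any table. H4 is an established human neuroglioma line, and in every group it carried Cry2Olig-PKR (opto-PKR), which blue light clusters. PKR is a kinase whose phosphorylation of eIF2, a translation initiation factor, is an entry point to the integrated stress response. The groups are 0, 60, 120, 240, 480, 600 and 720 min of continuous illumination before lysis, with 1 library each, so a single time has no replicate and time in the plate cannot be told apart from light. The sources used here do not say whether the line is 1 clone, and illuminated H4 lacking the construct was not analysed here.

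The enzymes work in linked steps. ASNS, asparagine synthetase, moves an amide group from glutamine to aspartate. ALDH18A1 (pyrroline-5-carboxylate synthase) and then PYCR1 (a mitochondrial pyrroline-5-carboxylate reductase) turn glutamate into proline. GPT2, the mitochondrial alanine transaminase, makes alanine from pyruvate and glutamate, and GOT1 and GOT2 are the cytosolic and mitochondrial aspartate transaminases, which also carry the malate-aspartate shuttle. In the integrated stress response the transcription factor ATF4 is known to act on genes of amino acid synthesis and transport, of which ASNS is a standard example. ATF4 pairs with C/EBP-family proteins on a composite site with the core TGATGNAA.

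The 6 complete tables hold 7048253 to 8911818 transcripts, collision-corrected counts of unique molecular identifiers (UMIs), at 2.08 to 2.38 reads per UMI. The table at 480 min stops in alphabetical order at NME1-NME2, so PYCR1 has no value there. The mesenchymal and neural markers VIM (687 to 900 CPM, counts scaled to 1000000 in each library) and CD44 (498 to 699 CPM) were abundant, SOX2 stood at 15.9 to 55.4 CPM and NES at or under 1.64 CPM, and the glial markers GFAP and S100B have no row in any table. OLIG2, a glial-lineage transcription factor, had 5.02 CPM in the unlit library, 20.5 CPM after 600 min and 18.2 CPM in the last, with an upward bend (1.29 ± 0.28, SE, edgeR adjusted p = 0.00518) in the test explained further on. That bend was lost on the log time scale and without 240 min, and the part of OLIG2 in the results was not tested. Of 6 markers of other cell types, CD3E has no row and EPCAM, CDH1, PTPRC, PECAM1 and ALB stood between 0 and 0.818 CPM.

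The reference table of promoters (RefSeq, GRCh38.p14, a later build than the hg19 of the deposited counts) held 4 of the 6 genes, matched by symbol: ASNS with 2 start sites, and ALDH18A1, GOT1 and GOT2 with 1 each. The 250 bases before the start are shown for ASNS, for GOT1 and for its mitochondrial counterpart GOT2, because these 3 carry the contrast described further on. All 3 genes lie on the minus strand, at chr7:97872409-97872658, chr10:99430625-99430874 and chr16:58734317-58734566. The sequences run 5′ to 3′ along the gene and end at the base before the start. Capitals mark TGATGNAA on either strand and the motif GTTACA, another element of the known nutrient-sensing unit of the ASNS promoter.
ASNS: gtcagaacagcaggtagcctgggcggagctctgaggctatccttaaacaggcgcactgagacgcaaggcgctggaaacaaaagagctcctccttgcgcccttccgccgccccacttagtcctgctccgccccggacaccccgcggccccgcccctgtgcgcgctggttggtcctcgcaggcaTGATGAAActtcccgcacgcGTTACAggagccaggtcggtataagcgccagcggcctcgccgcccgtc
GOT1: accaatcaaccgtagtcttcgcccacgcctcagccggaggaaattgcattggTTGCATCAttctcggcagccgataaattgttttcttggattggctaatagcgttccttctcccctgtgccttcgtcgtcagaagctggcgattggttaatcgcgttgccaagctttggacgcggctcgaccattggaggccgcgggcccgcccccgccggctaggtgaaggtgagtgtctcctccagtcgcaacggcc
GOT2: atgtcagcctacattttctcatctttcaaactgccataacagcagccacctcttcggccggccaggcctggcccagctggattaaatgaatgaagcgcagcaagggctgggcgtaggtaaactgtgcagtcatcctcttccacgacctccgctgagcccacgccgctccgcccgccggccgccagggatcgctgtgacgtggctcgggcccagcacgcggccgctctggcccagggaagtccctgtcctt

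TGATGNAA, searched on both strands, began 68 bases before the first ASNS start. In GOT1 it lay on the opposite strand, as ttgcatca, with its first base along the gene 198 bases before the start. The GOT1 match is also TGATGCAA, which 0.772% of the 35116 promoters in the table hold, against 3.14% for TGATGNAA. GTTACA followed in ASNS at 48 bases before the start, and 5.59% of all promoters hold it. The windows of ALDH18A1, GOT2 and the second ASNS start held neither TGATGNAA nor GTTACA. None of the 5 windows held the cAMP response element TGACGTCA, found in 1.65% of promoters. CCAAT, found in 32% of promoters, occurred 5 times before GOT1, 1 of them next to the composite match, and in none of the other 4 windows. GPT2 and PYCR1, which like ASNS and GOT1 rose in the test described further on, had no entry among the 35116 promoters and could not be searched. These are letter matches in short windows and were not tested against the counts.

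Over the course of illumination, 4 of the 6 transcripts rose (ASNS, GOT1, GPT2 and PYCR1) and none fell past the test. The test is the slope on minutes in edgeR's quasi-likelihood F test, with Benjamini-Hochberg adjustment over 13566 genes and a threshold of 0.05. By it 3.94% of all genes tested rose and 2.91% fell. The median fitted change of the 6 was 1.85 on the log2 scale, against -0.01 over all genes tested. In these single libraries the 4 reached their high levels by different routes: GPT2 was first well above its unlit level, ASNS and GOT1 came next, and PYCR1 stood below its unlit level up to 240 min. Of the 6 members, 0 were at least 2-fold above the unlit library at 60 min (2.2% of all genes that reached 50 counts in 1 or both of the libraries compared) or 120 min (6.1%). The count was 1 of 6 at 240 min (10.7%), 3 of 5 at 480 min (9.34%) and 4 of 6 in both later libraries (6.41% at 600 min, 5.13% at 720 min). No member was at least 2-fold lower in any lit library, against 0.411%, 2.78%, 6.04%, 6.77%, 4.48% and 4.4% of genes in order of time.

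**Figure D1:**
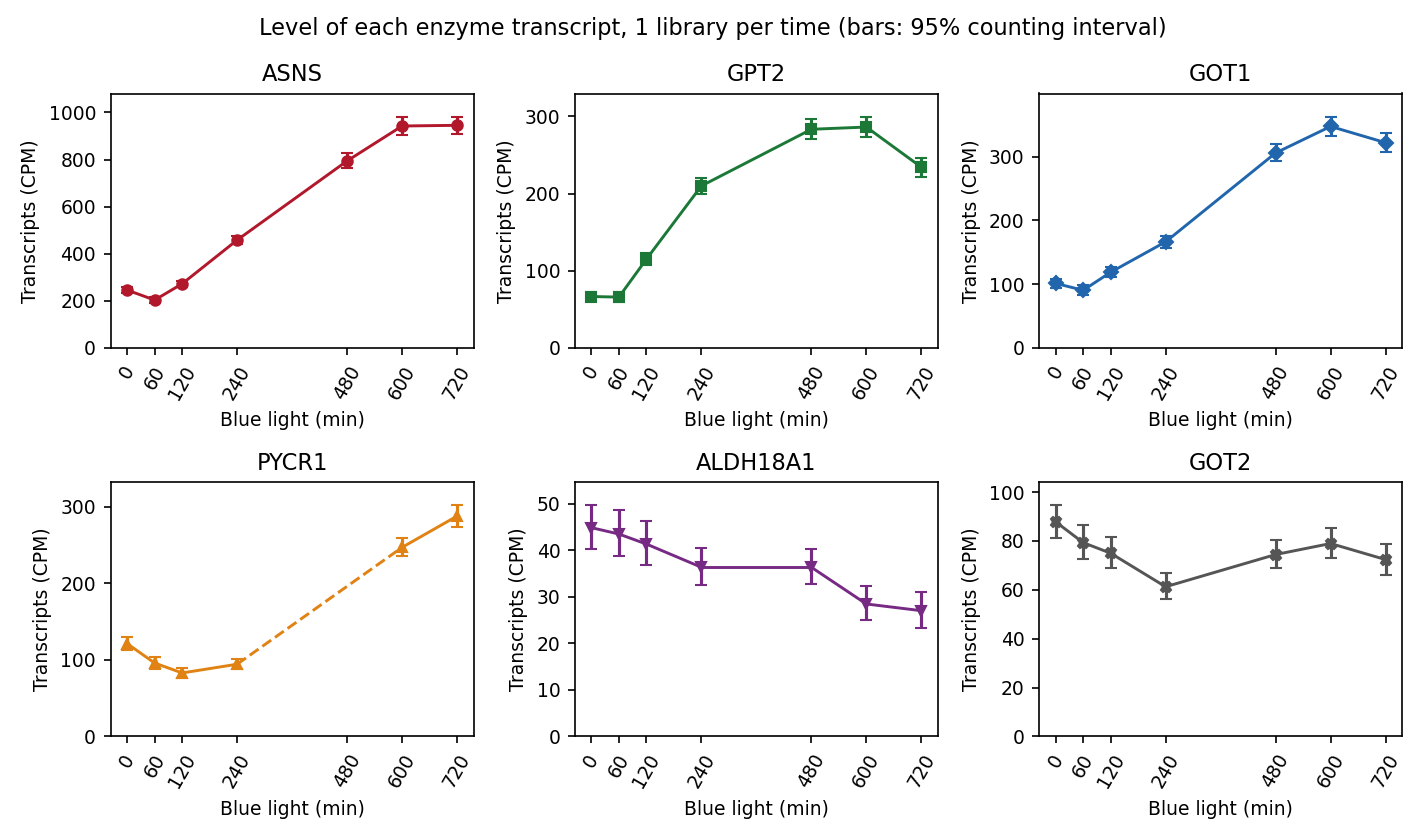
Level of each enzyme transcript (CPM, linear axes from 0) against minutes of blue light, 1 library per time. Bars are 95% counting intervals, and the dashed stretch for PYCR1 spans the missing 480 min value. ASNS, GPT2 and GOT1 end far above their first points, PYCR1 dips and then climbs, ALDH18A1 declines and GOT2 is lowest at 240 min.

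ASNS, which makes asparagine, had levels of 246, 203, 272, 458, 794, 942 and 945 CPM in the 7 libraries from 0 to 720 min. It was thus above its unlit level in 5 of 6 lit libraries and lowest after the first hour. Each step in this order of levels exceeded counting error except that from 600 to 720 min, a ratio of 1.00 (95% exact binomial interval 0.972 to 1.04). The fitted change over 720 min was 2.37 ± 0.24 (SE, log2, edgeR adjusted p = 0.00159), and the rise was called in all 15 alternative analyses (adjusted p from 1.46e-14 to 0.0157).

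The size of the ASNS rise depends on how molecules were counted. Of 4096 possible UMIs, ASNS used 1645 at 0 min and 3549 at 600 min, 86.6% of them, so its late levels rest on a steep collision correction. The ratio of 720 to 0 min was 3.85 (3.67 to 4.04) in transcripts, 2.30 in uncorrected UMIs and 5.68 in reads. With the sampling error of UMI collisions included, the interval in transcripts was 3.62 to 4.09. That interval takes all 4096 UMIs as equally likely and does not cover an error in the correction itself. Reads per corrected ASNS transcript went from 1.51 at 0 min to 2.48 at 600 min. The other risers showed smaller increases: GOT1 from 1.37 at 0 min to 1.81 at 480 min, and GPT2 from 1.30 to 1.77. PYCR1 went from 1.29 at 0 min to 1.52 at 720 min. For ALDH18A1 they stayed between 1.23 and 1.37 and for GOT2 between 1.21 and 1.35. The direction of the ASNS change was the same in all 3 kinds of count.

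GOT1, the cytosolic aspartate transaminase, had a similar course. Its levels were 101, 90.4, 119, 167, 306, 348 and 322 CPM from 0 to 720 min, 5 of 6 lit libraries being above the unlit one. The highest value was at 600 min and the lowest at 60 min, and only the neighbours 480 and 720 min in the order of levels could not be separated by counting error (ratio 1.05, 0.998 to 1.11). The fitted change was 2.08 ± 0.23 (SE, log2, edgeR adjusted p = 0.00262), and all 15 alternatives called it (adjusted p from 1.68e-12 to 0.0261). The ratio of 720 to 0 min was 3.18 (2.94 to 3.44) in transcripts, 2.63 in UMIs and 3.68 in reads.

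GPT2, the mitochondrial alanine transaminase, was high earliest. Its levels in order of time were 66.6, 65.8, 115, 210, 283, 286 and 234 CPM, so that the first 2 libraries were the lowest and the highest were at 480 and 600 min. The level at 120 min was already 1.73 times the unlit one (1.55 to 1.92), against 1.11 (1.04 to 1.18) for ASNS and 1.17 (1.07 to 1.29) for GOT1. Neighbouring levels at 0 and 60 min and at 480 and 600 min did not differ beyond counting error, whereas 720 min lay below 600 min (ratio 0.818, 0.769 to 0.870).

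Both tests called GPT2. Its fitted change was 2.08 ± 0.45 (SE, log2, edgeR adjusted p = 0.0268). Its bend was 1.14 ± 0.18 (edgeR adjusted p = 0.00156), where the bend, from the quadratic term, is how far the fitted log2 level at 360 min lies above the midpoint of both fitted ends. Upward bends were called for 17% of all genes tested. The slope was no longer called when the library at 60, 120, 480 or 600 min was left out (edgeR adjusted p of 0.104, 0.0679, 0.0509 and 0.114 in turn). The bend was not called on a log time scale (0.10, adjusted p = 0.8) or with times as ranks (0.67, adjusted p = 0.0765).

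PYCR1, which catalyses the last step to proline, was first below its unlit level and later above it. Its levels at 0, 60, 120, 240, 600 and 720 min were 121, 95.7, 82.8, 94.2, 247 and 288 CPM. The 3 early lit libraries were all below 0 min by more than counting error, with ratios of 0.790 (0.717 to 0.871), 0.684 (0.618 to 0.755) and 0.778 (0.710 to 0.852), and the 2 late ones were above it, at 2.04 (1.89 to 2.20) and 2.37 (2.20 to 2.56). The levels at 60 and 240 min could not be separated (ratio 1.02, 0.918 to 1.13).

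The PYCR1 slope was 1.63 ± 0.30 (SE, log2, edgeR adjusted p = 0.018) and its bend -0.76 ± 0.23 (edgeR adjusted p = 0.0263). PYCR1 was the member with a downward bend, a call made for 14.3% of all genes tested. The slope was not called when the library at 60, 120, 600 or 720 min was left out (edgeR adjusted p of 0.0782, 0.0508, 0.119 and 0.116 in turn), nor on the log (0.118) and rank time scales (0.0709). The bend was not called when the library at 0, 120 or 240 min was left out (-0.41, -0.69 and -0.68, edgeR adjusted p of 0.293, 0.0505 and 0.221).

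ALDH18A1, the enzyme just before PYCR1 in proline synthesis, had its highest level in the unlit library and its lowest in the last. Its levels were 44.9, 43.5, 41.3, 36.3, 36.3, 28.5 and 27.0 CPM from 0 to 720 min, each lit library being below the unlit one. At 60 and 120 min the ratios to the unlit library, 0.969 (0.832 to 1.13) and 0.921 (0.792 to 1.07), were within counting error. No earlier time was lower than a later one, although the sole neighbours to differ beyond counting error were 480 and 600 min (ratio 1.28, 1.08 to 1.51). At 720 min the level was 0.602 of that at 0 min (0.506 to 0.716). The slope, -0.70 ± 0.19 (SE, log2), missed the threshold (edgeR adjusted p = 0.0551). It passed with read counts (-0.80, adjusted p = 0.0393) and in DESeq2 (-0.70, adjusted p = 0.00653), and over all 15 alternatives lay between -0.80 and -0.65 (adjusted p from 0.00653 to 0.25). ALDH18A1 is the member with the fewest counts, 203 to 384 per library.

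GOT2, the mitochondrial aspartate transaminase, was not called by either test. Its levels in order of time were 87.8, 79.3, 75.0, 61.3, 74.5, 79.0 and 72.4 CPM. All 6 lit libraries were below the unlit one, and the lowest, at 240 min, was 0.697 of it (0.624 to 0.779). At 60 min the ratio to the unlit library, 0.903 (0.81 to 1.01), was within counting error. In the order of levels only the step from 240 to 720 min exceeded counting error. The slope was -0.11 ± 0.20 (SE, edgeR adjusted p = 0.781) and the bend -0.25 ± 0.17 (edgeR adjusted p = 0.275), and none of the 15 alternatives called either.

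**Figure D2:**
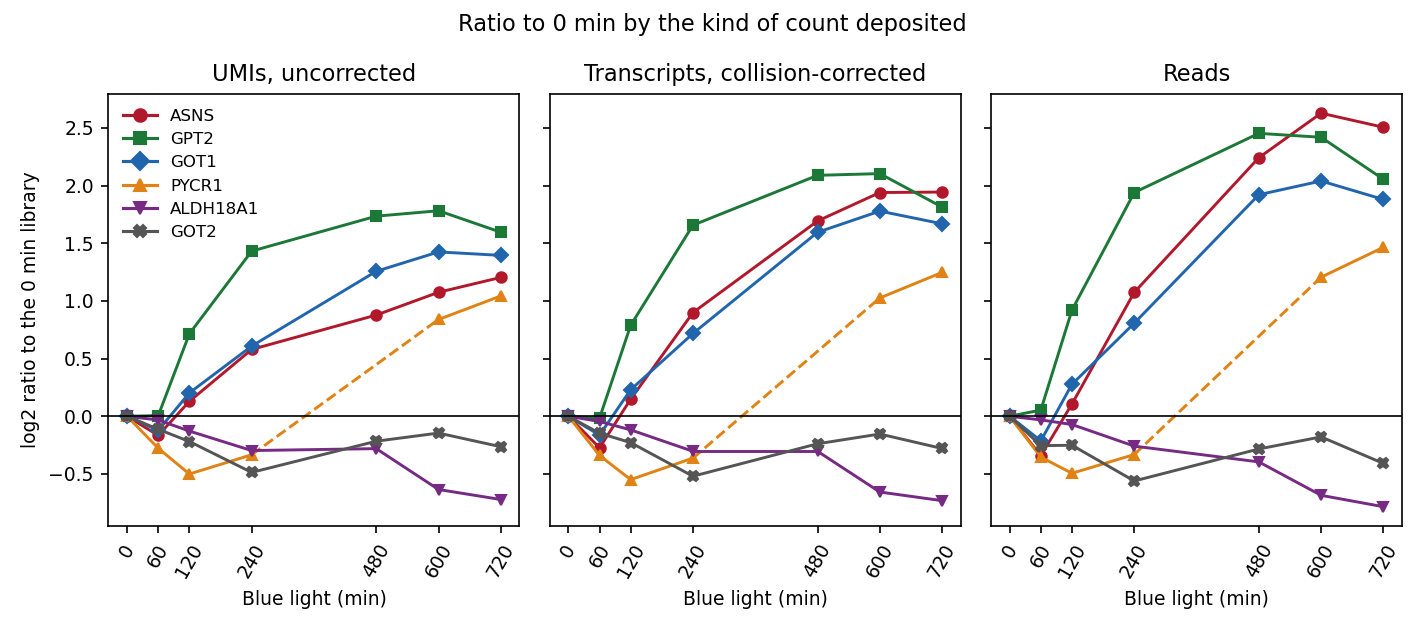
The log2 ratio of each lit library to the 0 min library against minutes of blue light, for uncorrected UMIs, collision-corrected transcripts and reads. Each line is 1 enzyme (dashed across the missing 480 min value of PYCR1). At 720 min ASNS, GPT2, GOT1 and PYCR1 lie above 0 and ALDH18A1 and GOT2 below it in all 3 panels, while the place of ASNS among the risers changes: at 720 min its ratio is 2.30 in UMIs, 3.85 in transcripts and 5.68 in reads.

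Whether 2 transcripts drifted apart with time was tested on their ratio within each library, which no library scaling can alter. The log2 ratio was correlated with minutes for all 15 pairs of members and 4 pairs with a partner enzyme (exact permutation test over all orders of the libraries, two-sided). A ratio that moves away and returns gives a low r, so a pair that does not pass may still have moved unequally. GPT2 with GPT gave no value, because GPT, the cytosolic alanine transaminase, had 0 to 2 counts per library. Of the 18 pairs computed, 10 passed by Pearson's r and 6 by Spearman's rho after Benjamini-Hochberg adjustment. The share of all gene pairs that would pass was not computed. Each pair of a riser with ALDH18A1 or GOT2 passed by Pearson's r, so these calls largely restate the slopes from the same counts.

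The 2 aspartate transaminases separated, mostly between 60 and 480 min. The log2 ratio of GOT1 to GOT2 was 0.21, 0.19, 0.66, 1.44, 2.04, 2.14 and 2.15 in order of time. Its correlation with minutes was r = 0.952 (n = 7, exact permutation p = 0.00298, adjusted 0.0134) and rho = 0.964 (exact permutation p = 0.00278, adjusted 0.0125). Without the 600 and 720 min libraries r was 0.972, and leaving out any 1 library kept the call (r from 0.935 to 0.973).

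ASNS also gained on NARS, the synthetase that loads asparagine onto its tRNA and itself rose. Their log2 ratio went from 0.39 at 0 min to 0.17 at 60 min and 1.55 at 720 min, with r = 0.956 (n = 7, exact permutation p = 0.00258, adjusted 0.0134) and rho = 0.893 (p = 0.0123 by the exact test, adjusted 0.0369). Without the last 2 libraries r was 0.869. ASNS against ALDH18A1 gave r = 0.980 (n = 7, exact permutation p = 0.000794, adjusted 0.00714) and rho = 0.964 (p = 0.00278 by the exact test, adjusted 0.0125), and r was 0.967 without the last 2 libraries.

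The 2 consecutive proline enzymes parted late. The log2 ratio of ALDH18A1 to PYCR1 was -1.43 in the unlit library, -1.14 at 60 min and -1.37 at 240 min, but -3.12 and -3.41 in the last 2. Its r was -0.952 (n = 6, exact permutation p = 0.0264, adjusted 0.0496) and its rho -0.60 (exact permutation p = 0.242, adjusted 0.362). Without the 600 and 720 min libraries r was 0.02, so the relation rests on those libraries.

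None of the 6 pairs among the 4 risers passed, which does not mean that they moved alike. The log2 ratio of PYCR1 to GPT2 was 0.86 in the unlit library, -1.16 at 240 min and 0.30 in the last. Its r was -0.158 (n = 6, exact permutation p = 0.757, adjusted 0.801) over the series and -0.975 without the last 2 libraries. GPT2 against GOT1 gave r = 0.02 (n = 7, exact permutation p = 0.97, adjusted 0.97) and rho = 0.143 (exact permutation p = 0.783, adjusted 0.783), and r was 0.548 without the last 2 libraries. The log2 ratio was highest at 240 min, at 0.33, against -0.61 in the unlit library and -0.46 in the last. ASNS against GOT1 gave r = 0.831 (n = 7, exact permutation p = 0.0321, adjusted 0.0526) and rho = 0.786 (exact permutation p = 0.048, adjusted 0.123), with r = 0.628 without the last 2 libraries. The sign of the ASNS/GOT1 relation depended on the count used, r being 0.936 with reads (adjusted exact permutation p = 0.0161) and -0.786 with uncorrected UMIs (adjusted exact permutation p = 0.0769).

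**Figure D3:**
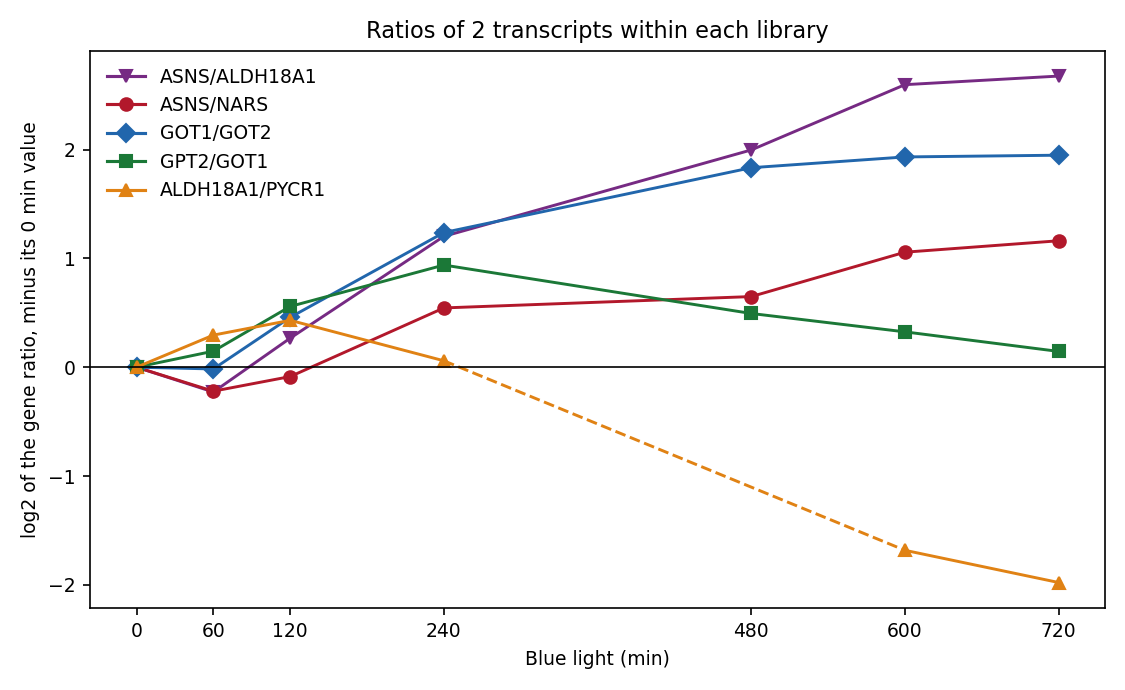
The log2 ratio of 2 transcripts in each library, minus its 0 min value, against minutes of blue light, for 5 pairs (dashed across the missing 480 min value of PYCR1). GOT1/GOT2 and ASNS/ALDH18A1 are lowest at 60 min and highest at 720 min, GOT1/GOT2 rising little after 480 min. GPT2/GOT1 peaks at 240 min. ALDH18A1/PYCR1 stays near or above its start up to 240 min and ends far below it.

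Other genes of the same pathways were read from lists of enzymes that make, break down or use these amino acids. Beside the list counts below stand the shares over all genes tested: 3.94% rose, 2.91% fell, 17% bent upward and 14.3% bent downward. Of 12 tested genes of asparagine and aspartate use, 3 rose and 0 fell (median fitted change 0.27). ASS1, argininosuccinate synthase, which consumes aspartate, rose from 19.5 to 128 CPM (3.13 ± 0.33, SE, edgeR adjusted p = 0.00192), called in all 15 alternatives. NARS rose from 187 to 322 CPM (1.03 ± 0.21, edgeR adjusted p = 0.0218) and AGA, a lysosomal enzyme that releases aspartate from glycosylated asparagine, from 44.4 to 81.0 CPM (1.00 ± 0.21, edgeR adjusted p = 0.0261). Both lost the call without 60, 120 or 600 min. On the same list 3 genes bent upward and 1 downward, where bends are common calls (17% and 14.3% of all genes tested). ASNSD1, which resembles asparagine synthetase in sequence, bent upward by 0.59 ± 0.14 (SE, edgeR adjusted p = 0.0106) with no called slope (0.19 ± 0.26, edgeR adjusted p = 0.724). NARS2, the mitochondrial asparaginyl-tRNA synthetase, bent upward by 0.89 ± 0.17 (edgeR adjusted p = 0.00327) and DARS, the aspartyl-tRNA synthetase, by 0.46 ± 0.11 (edgeR adjusted p = 0.00979). CAD, which uses aspartate for pyrimidine synthesis, bent downward (-1.12 ± 0.29, edgeR adjusted p = 0.0126). The NARS2 bend was called in all 15 alternatives, and the other 3 were lost without 240 min and in 1 or 2 more alternatives each.

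Of 6 tested genes around proline, 1 rose and 0 fell (median -0.0013), and none had a called bend. EPRS, the glutamyl-prolyl-tRNA synthetase, rose from 232 to 348 CPM (0.96 ± 0.21, edgeR adjusted p = 0.0264). OAT, which makes from ornithine the intermediate that PYCR1 reduces, had 183 CPM in the unlit and 136 CPM in the last library (-0.38 ± 0.20, edgeR adjusted p = 0.296). The ratio of ALDH18A1 to OAT was not called (r = -0.749, n = 6, exact permutation p = 0.104, adjusted 0.156, and 0.952 without the last 2 libraries). The rho of that ratio was -0.486 (p = 0.356 by the exact test, adjusted 0.427). PRODH, which starts proline breakdown, had at most 1 count in any library. The EPRS call was lost without 60, 120 or 600 min or with times as ranks.

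Of 5 tested genes of alanine and glutamate supply, 1 rose and 0 fell (median 0.41): AARS, the alanyl-tRNA synthetase, from 140 to 260 CPM (1.29 ± 0.21, SE, edgeR adjusted p = 0.0098), lost without 600 min. GLUD1, a glutamate dehydrogenase, bent downward (-0.58 ± 0.17, edgeR adjusted p = 0.021), lost without 0 or 240 min, and so did AARS2, the mitochondrial alanyl-tRNA synthetase (-0.47 ± 0.16, edgeR adjusted p = 0.0461), lost in 11 of 15 alternatives. Of 7 tested genes of the malate-aspartate shuttle and of aspartate carbon supply, 0 rose and 0 fell (median -0.10), at edgeR adjusted p of 0.0814 or more. MDH1, the cytosolic malate dehydrogenase that works beside GOT1, had 188 and 119 CPM in the first and last library (-0.34 ± 0.23, edgeR adjusted p = 0.414), and SLC25A12, a mitochondrial aspartate-glutamate carrier, 93.7 and 57.5 CPM (-0.81 ± 0.23, edgeR adjusted p = 0.0814). The SLC25A12 slope passed in DESeq2 (adjusted p = 0.0232) and without 240 min (edgeR adjusted p = 0.0365). MDH2, the mitochondrial malate dehydrogenase, was the 1 shuttle gene with a called bend, downward (-0.58 ± 0.15, edgeR adjusted p = 0.015), lost without 0 or 240 min.

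**Figure D4:**
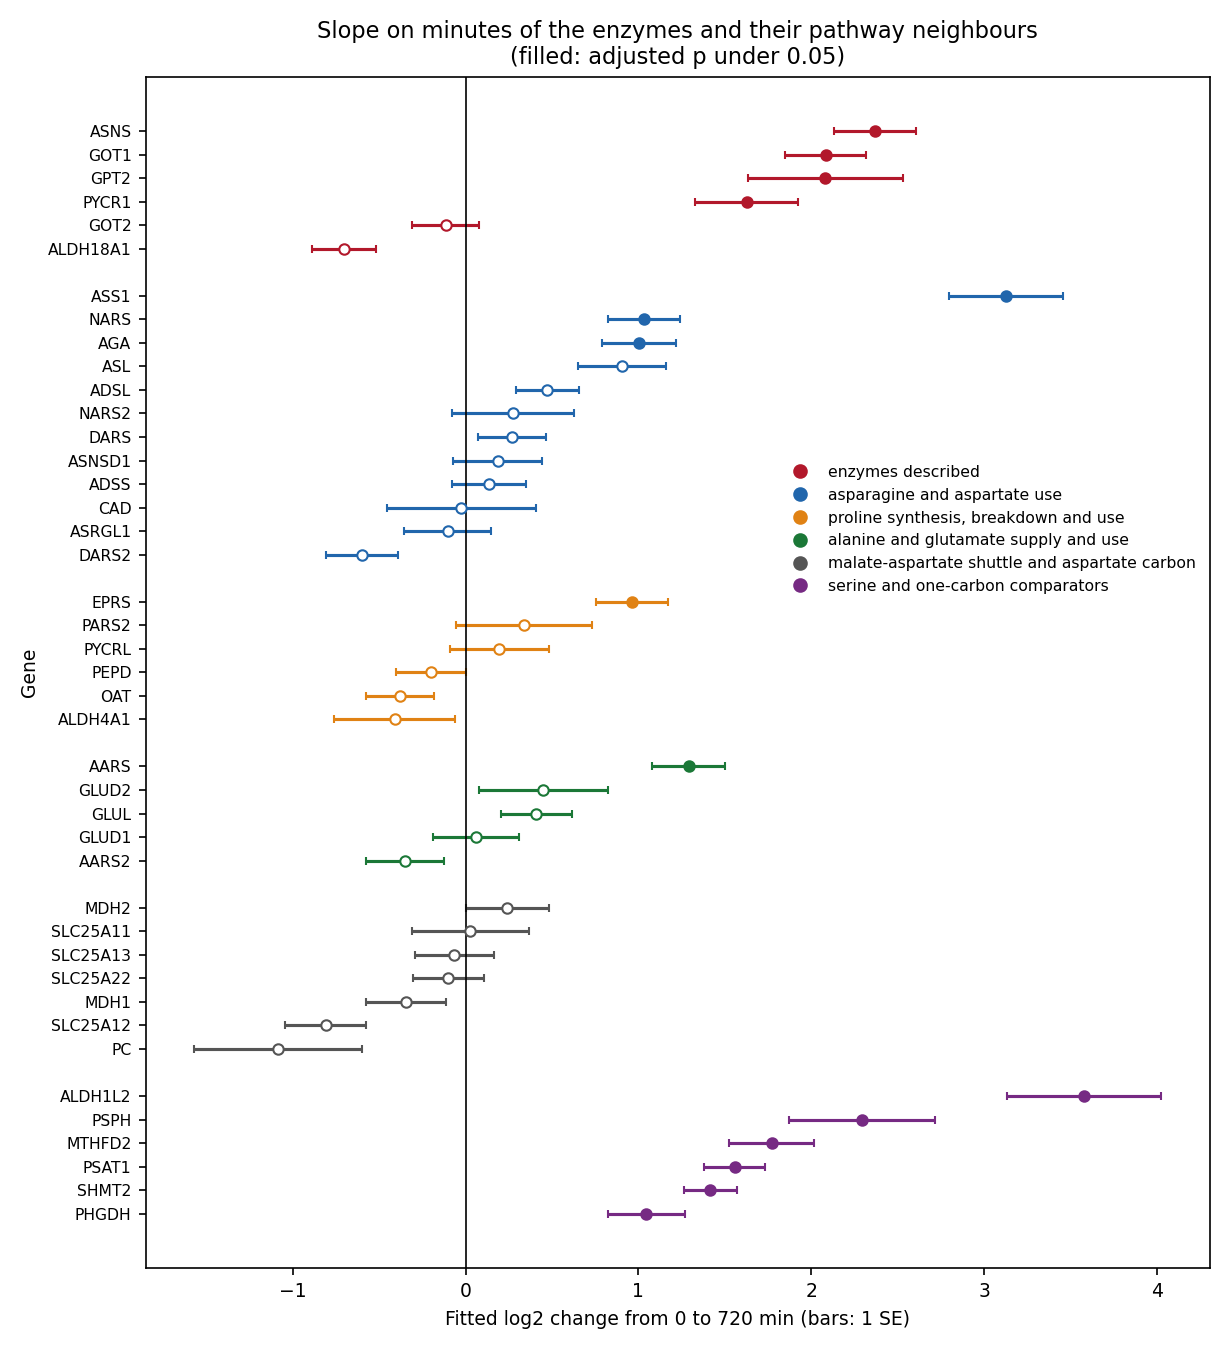
Fitted log2 change from 0 to 720 min (points, with 1 SE bars) for the 6 enzymes and tested genes of 5 related lists. Filled points passed the edgeR test after adjustment. ASNS, GOT1, GPT2 and PYCR1 lie between 1.63 and 2.37, GOT2 and ALDH18A1 at or below 0, and no shuttle gene is filled.

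Enzymes of serine and one-carbon metabolism, a group also known as ATF4 targets, were set beside these as a comparison chosen with their rise already known. All 6 rose, by 1.05 (PHGDH) to 3.58 (ALDH1L2) on the log2 scale, with a median of 1.66, where 3.94% of all genes tested rose. The PHGDH slope was lost in 6 of 15 alternatives (edgeR adjusted p up to 0.233) and that of PSPH in 4 (up to 0.0993), in both without 60, 120, 600 or 720 min. The other 4 were called in all 15. Of the transcription factors ATF4, ATF3, DDIT3, CEBPB, CEBPG and ATF5, 2 had a rising slope and 4 an upward bend (3.94% and 17% of all genes tested). ATF4 went from 309 to 624 CPM (0.88 ± 0.17, SE, edgeR adjusted p = 0.0168; lost without 60, 600 or 720 min). ATF5 had 171 CPM in the unlit library, a low of 85.1 CPM after 120 min and 474 CPM in the last (1.84 ± 0.44, edgeR adjusted p = 0.0379), a call lost in 9 of 15 alternatives. CEBPG, a dimer partner of ATF4, bent upward by 1.12 ± 0.16 (edgeR adjusted p = 0.00115), with 67.6 CPM in the unlit library, 236 CPM after 480 min and 178 CPM in the last. That bend was lost only on the log time scale among the 15 alternatives. ATF3 bent upward by 2.51 ± 0.61 (edgeR adjusted p = 0.0359), with 27.1 CPM in the unlit library, 333 CPM after 240 min and 114 CPM in the last. DDIT3, which encodes CHOP, bent by 1.38 ± 0.39 (edgeR adjusted p = 0.0354) and CEBPB by 0.83 ± 0.28 (edgeR adjusted p = 0.0496). Of the 15 alternatives, 6, 4 and 5 did not call the bends of ATF3, DDIT3 and CEBPB, the fit without 240 min being among them for each.

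For each enzyme the genes of most similar course were found by Pearson's r of log2 CPM over the 6 complete libraries, among 10040 other genes with at least 50 counts in each. Values this high are the largest of many and are given only as a description. ASNS was most like SLC6A9, a glycine transporter (0.999), TRIB3, a pseudokinase (0.999), and MTHFD1L, a mitochondrial folate enzyme (0.998). GOT1 was most like HRASLS (0.999), TRIB3 (0.999) and ASNS itself (0.997). GPT2 was most like PNMA2 (0.996), SLC7A1, a cationic amino acid transporter (0.995), and KRT80, a keratin (0.995). PYCR1 was most like ZNF593 (0.9995), GFER (0.9985) and RAPGEF1 (0.997), ALDH18A1 like NDRG4 (0.999), NUSAP1, a mitotic spindle gene (0.999), and CRISPLD1 (0.998), and GOT2 like VPS26B (0.985), KIAA1549 (0.984) and SPG21 (0.983).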

How the data were processed

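RNA of 7 cultures was made into libraries by an adaptation of CEL-Seq2, which counts transcript 3′ ends, per the labels' protocols. The authors deposited expected counts (reads, UMIs and collision-corrected transcripts) per gene. The submitters' processing notes name BWA and hg19. The aligner version was not given in the sources used here, nor was the annotation. Column 4, the named primer, was used, and the other 95 barcode columns were not. Corrected UMIs matched the deposited transcript counts within 7.4e-10. All 41 UMI values of the 6 enzymes were whole within 1e-06.

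Expected counts were rounded. Genes with at least 10 counts in 3 libraries were fitted in edgeR 4.0.16 (R 4.3.3, robust quasi-likelihood) with TMM over the 6 complete libraries. The 480 min library was scaled over the genes it lists, and later-named genes were fitted on 6. Residual spread joins noise with misfit of the shape, and p-values measure only spread between these libraries. The script was tested on simulated data. Ratio intervals are exact binomial 95% and cover counting error only, and those in the level plot are exact binomial on the UMIs seen. Ratios with OAT or PYCR1 use 6 libraries. The 15 alternatives were UMI or read counts, RLE size factors, no filter or 50 counts in 3 libraries, log or rank time, DESeq2 1.42.0, and each library left out in turn.

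Members and lists were chosen with earlier results of these data known. Named genes were the members, called list genes, ratio partners and the 3 most similar genes per member. Genes with called bends, markers, PRODH, MDH1 and SLC25A12 were named after their values were seen. Of the ratio partners and listed genes, 2 are not reported here, though the ratio p-values were adjusted over all 18 pairs.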

Additional observations from a re-analysis of the deposited data

How the results depend on the processing

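The slopes of ASNS and GOT1 were called under all 15 alternatives, and each member's slope kept its sign in all of them, except that of GOT2, which was never called and had the other sign in 1. Leaving out 1 library moved the number of members with a called slope from 4 to between 2 and 4, the lower value without 60, 120 or 600 min, and the number with a called bend from 2 to between 1 and 3. Over all genes, 929 slopes were called (3131 at an unadjusted p under 0.05), 143 to 1492 with 1 library left out (292, 376 and 467 without 60, 120 and 720 min, the extremes without 600 and 0 min), and 1601 in DESeq2. Bends numbered 4242, and 1286 (without 240 min) to 4296 with 1 library left out, among them 1954 without 0 min. With times as ranks 1 member bend was called. On the log time scale the bends of ASNS and GOT1 were called downward (-0.64, adjusted p = 0.016, and -0.53, adjusted p = 0.0357), against uncalled upward values of 0.39 and 0.40 on minutes. Without 0 min both were called upward (0.77 and 0.70). The causes were not tested. The ratio pairs ALDH18A1/GOT2 and GPT2/GOT2 lost their calls in most of the fits without 1 library. ALDH18A1/PYCR1 lost its call without 480 min (adjusted p = 0.0594, at the same r, since PYCR1 has no value there and only the adjustment changed), and ASNS/GOT1 gained 1 without 240 min (r = 0.928, adjusted p = 0.0306). In the fits without any library other than 480 min, pairs with PYCR1 or OAT gave no value, because fewer than 6 libraries were left. Their calls were therefore not checked against the loss of a library they use, and those fits held 11 pairs. Motif matches were the same in the wider window. No paired analysis was possible because each time has 1 library.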
